A study of Mus musculus with 6 samples.

Results

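Among 1 kb windows of the mouse kidney genome, 1354 were set apart by a lower level of DNA methylation in both libraries from 5AZA-treated kidneys than in any of the 4 libraries from mice not given the drug, called untreated here. They were chosen from 88144 autosomal windows that held at least 3 CpG sites read 10 or more times in all 6 libraries, and made up 1.54% of them. A window was kept when the higher of the 2 5AZA libraries lay at least 5 percentage points below the lowest of the 2 saline and 2 sham libraries, and when the saline and sham means differed by under 3 points. The level of a window is the number of methylated reads over all reads of its sites, in percent. These windows are called the 5AZA-only windows here. Because the levels of all 6 libraries chose them, their levels and differences are given as a description, with no test.

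Methylation had been read by reduced representation bisulfite sequencing of DNA from kidney cortex and outer medulla of wild-type male C57BL/6J mice, whose age the labels do not give. In 4 libraries the left ureter had been tied off and cut 7 days earlier (unilateral ureteral obstruction, UUO), with saline in 2 of them and with 5AZA, injected into the abdomen at 1 mg/kg per day in saline, in the other 2. The remaining 2 libraries came from sham-operated mice: sham 1 was the control of the obstruction experiment, and sham 2 was the control of an ischemia/reperfusion experiment whose name carries 48 h. The labels do not state that sham mice were given injections, and they do not say that libraries of a group came from separate mice, so the spread between them, and the p-values that rest on it, may be technical in part. Covering reads over all CpG sites ranged from 37728517 in sham 2 to 76730132 in saline 1. Sham 2 stood apart by its depth, with a median of 21 reads per site against 33 to 48 in the other libraries, and the main counts, shares and differences are also given without it. Those values, other than the window and call counts, were added after the data were seen.

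In mammals most cytosines followed by guanine (CpG) are methylated, except in the CpG-rich stretches at many gene starts. DNA methyltransferases copy the mark onto the new strand after replication, and an unmethylated daughter strand is left where they fail. The abbreviation 5AZA usually denotes a 5-aza analogue of cytidine. Such analogues are built into DNA and trap these enzymes, so that methylation is lost as cells divide. Obstruction of the ureter leads to tubular injury, proliferation of tubular and interstitial cells and fibrosis. The assay cuts DNA with MspI, keeps short fragments and thereby samples CpG-rich DNA. In bulk tissue, a change in the mix of cells and a change of methylation within cells cannot be told apart.

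A gene start could be placed in 2 of the 5AZA-only windows. A promoter of each is shown because these are the members for which sequence could be matched to the sites measured. Both are RefSeq sequences of GRCm38.p6, 250 bases before to 50 after the start, placed on mm9 by matching the order and spacing of their CpG sites to sites in the deposited data. Capitals mark the CpG sites that entered the window's level. The first belongs to Sec1, a fucosyltransferase gene, at chr7:52949723-52950022 on the minus strand, and the second to Gm24463 at chr9:88961417-88961716 on the plus strand.
Sec1: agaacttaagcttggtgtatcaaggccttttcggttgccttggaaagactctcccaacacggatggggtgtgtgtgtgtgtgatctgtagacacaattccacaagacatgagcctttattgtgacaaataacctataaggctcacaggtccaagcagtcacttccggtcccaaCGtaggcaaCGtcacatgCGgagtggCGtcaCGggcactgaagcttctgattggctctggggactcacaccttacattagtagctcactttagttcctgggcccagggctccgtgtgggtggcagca
Gm24463: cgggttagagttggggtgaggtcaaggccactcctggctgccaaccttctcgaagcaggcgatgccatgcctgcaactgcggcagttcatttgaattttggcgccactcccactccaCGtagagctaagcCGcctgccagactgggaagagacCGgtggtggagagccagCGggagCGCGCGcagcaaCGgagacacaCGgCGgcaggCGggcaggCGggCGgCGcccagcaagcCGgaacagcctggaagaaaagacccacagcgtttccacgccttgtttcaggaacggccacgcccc
Of the 9 CpG sites in the Sec1 sequence, 5 entered the window. Over these 5 sites the methylation level was 96.4% and 97.1% with saline, 96.1% and 98.0% in sham, and 90.9% and 86.7% with 5AZA. These sites were almost fully methylated in every untreated library, and both 5AZA libraries lay lower. Of the 24 CpG sites in the Gm24463 sequence, 15 entered the window. Their level was 50.4% and 74.9% with saline, 61.7% and 57.7% in sham, and 42.5% and 46.3% with 5AZA. Both 5AZA libraries lay lowest, but the saline libraries differed from each other by more than saline 1 did from either 5AZA library. Other Gm24463 promoters were placed at chr9:88961582-88961881 (13 sites used) and chr9:88961808-88962107 (7 sites used). At the former the level was 49.6% and 74.4% with saline, 65.0% and 57.1% in sham, and 46.9% and 51.3% with 5AZA. There 5AZA 2 lay above saline 1. At the latter it was 86.4% and 85.5% with saline, 90.6% and 97.0% in sham, and 76.4% and 85.5% with 5AZA. There 5AZA 2 was level with saline 2.

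The 5AZA-only windows were highly methylated in the untreated kidneys and differed by a mean of -9.92 points with 5AZA. Averaged over the 1354 windows, saline 1 and saline 2 had a level of 89.8% and 90.1%, sham 1 and sham 2 had the same 89.8% and 90.1%, and 5AZA 1 and 5AZA 2 had 80.6% and 79.5%. The group means were 89.9% ± 0.176 with saline, 89.9% ± 0.224 in sham and 80.02% ± 0.776 with 5AZA (SD, n = 2 each). The 4 untreated libraries nearly coincided, as the rule bounds the difference between saline and sham, and both 5AZA libraries lay below all of them.

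**Figure D1:**
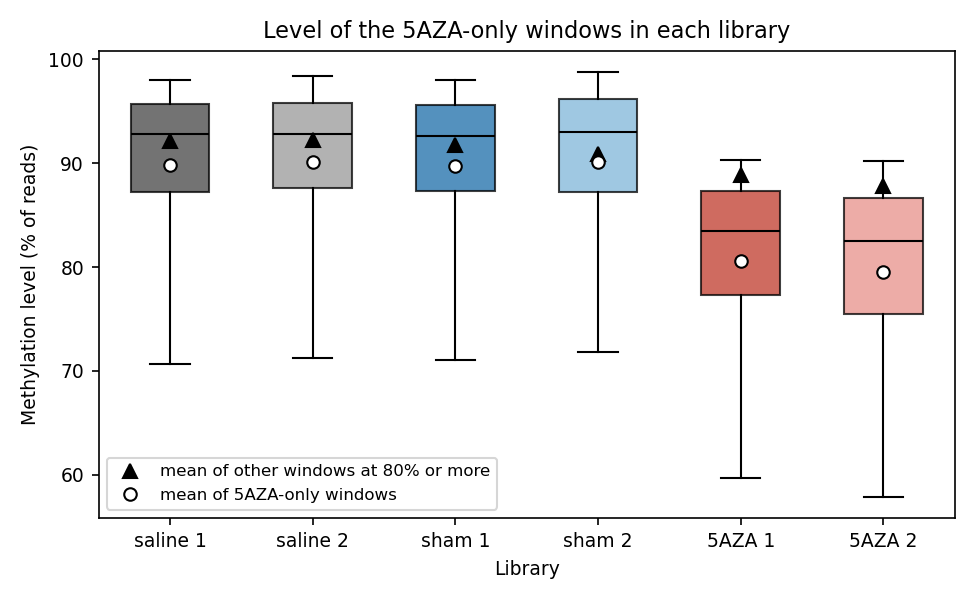
Methylation level (% of reads) of the 1354 5AZA-only windows in each of the 6 libraries. Boxes span the quartiles with the median as a line, whiskers the 5th to 95th percentile, open circles the mean over these windows, and triangles the mean over the other windows of 80% or more, which lay lower with 5AZA too.

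Lower methylation with 5AZA was not limited to these windows. In the 45168 other autosomal windows with a mean of at least 80% over the saline and sham libraries, the level was 92.2% ± 0.0802 with saline, 91.3% ± 0.647 in sham and 88.4% ± 0.757 with 5AZA (SD, n = 2 each). Their median difference between 5AZA and the 4 untreated libraries was -3.22 points, against -9.35 points in the 5AZA-only windows. Both 5AZA libraries lay below all 4 others, by any margin, in 24.4% of all autosomal windows and in 39.9% of those at 80% or more. A fall of at least 10 points was also seen in 822 of these other windows, which missed the margin or the limit of the rule, and the largest fall among them was -27.96 points. Large falls were thus not particular to the 5AZA-only windows. Without sham 2 both 5AZA libraries lay below all others in 36.2% of autosomal windows and in 52.5% of those at 80% or more, the mean difference in the 1354 windows was -9.84 points and the median in the others -3.44 points.

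**Figure D2:**
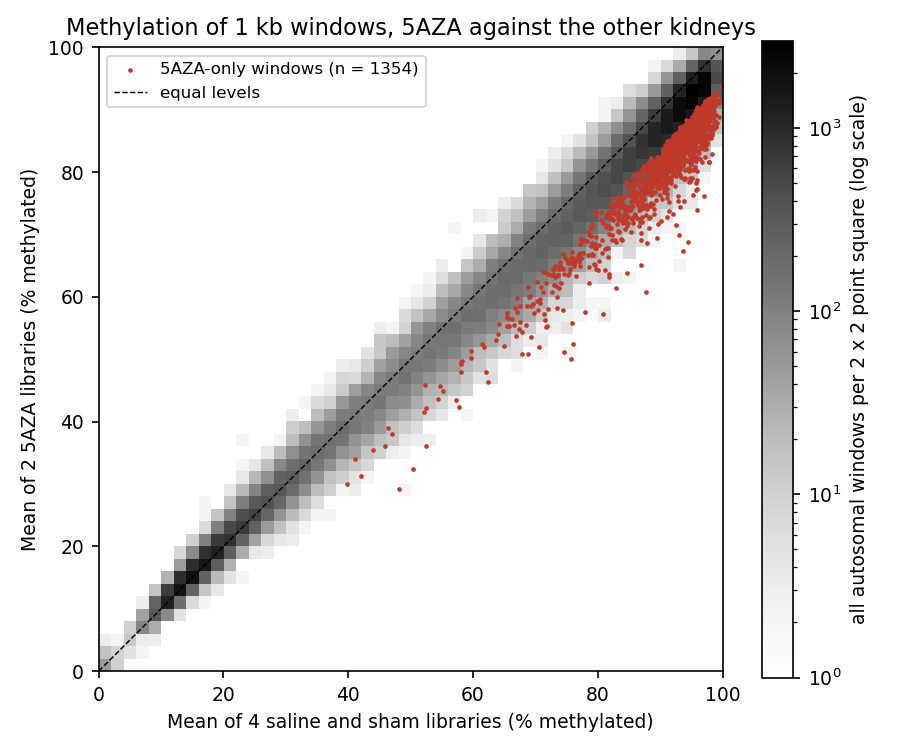
Mean level of the 2 5AZA libraries against the mean of the 4 saline and sham libraries for all 88144 autosomal windows (grey, number of windows per square on a log scale) and for the 1354 5AZA-only windows (red). The bulk of highly methylated windows also lies under the line of equal levels, and the 5AZA-only windows lie among its larger falls.

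The difference in single 5AZA-only windows ran from -26.9 to -5.50 points, and 90% of windows lay between -15.2 and -6.59 points. A fall of at least 10 points was seen in 535 windows, of at least 15 points in 73 and of at least 20 points in 16. The gap between the higher 5AZA library and the lowest untreated library had a median of 6.14 points and a maximum of 17.1 points. At chr1:154577001-154578000 and chr9:5267001-5268000 the gap was 5.00 points, just inside the rule, and at chr10:80329001-80330000 and chr5:77710001-77711000 it was 4.998 and 4.996 points, just outside. The saline and sham means differed by 2.99 points at chr7:133503001-133504000 and by -2.98 points at chr7:147414001-147415000, inside the limit, and by 3.0003 and 3.003 points at chr14:49327001-49328000 and chr14:55053001-55054000, just beyond it.

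Applied in other directions, the same rule found unequal numbers. With 5AZA higher than all 4 others it kept 14 windows, 0 of them at 80% or more. Without 1 library that count was 15 to 196, with 196 without 5AZA 1 and 138 without 5AZA 2. Both saline libraries stood above all others in 1322 windows and below them in 28, whereas sham stood above in 145 and below in 106. The windows with saline apart lay elsewhere on the scale, with 254 of the 1322 at 80% or more, against 1194 of the 1354 5AZA-only windows. When each 5AZA library was first moved by its own median difference within 7 classes of level, a choice made after seeing the data, 206 windows still fell by the rule and 50 rose. All 206 were among the 1354, which the move favours, since it raises 5AZA levels wherever the median difference is negative. At 80% or more these numbers were 169 and 19. Without sham 2 the rule as it stands kept 2553 windows, 1205 of the 1354 among them, and the mean difference over the 2553 was -9.59 points.

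The largest fall was at chr4:131358001-131359000 (mm9, as are all window positions), a window of 4 CpG sites 35693 bp downstream of the nearest placed gene start, that of the receptor tyrosine phosphatase gene Ptpru. Its level was 89.7% and 88.5% with saline, 88.9% and 84.1% in sham, and 69.4% and 52.3% with 5AZA. The 4 untreated libraries lay close together, and both 5AZA libraries were well below them and far from each other. At chr10:24255001-24256000 (4 sites) the level was 71.9% and 79.4% with saline, 76.1% and 75.6% in sham, and 55.5% and 44.6% with 5AZA. The window at chr16:98081001-98082000 (4 sites) had 94.5% and 93.7% with saline, 94.6% and 95.2% in sham, and 81.6% and 56.0% with 5AZA. It lay 8043 bp upstream of the start of Prdm15, a gene for a zinc-finger protein of the PRDM family. Near Pik3r1, which encodes a regulatory subunit of phosphatidylinositol 3-kinase, the window at chr13:102527001-102528000 (5 sites, 10672 bp downstream of the start) went from 76.0% over the untreated libraries to 63.0% and 41.8% with 5AZA. The remaining 4 of the 8 largest falls, at chr5:43332001-43333000, chr11:100644001-100645000, chr13:26328001-26329000 and chr1:182523001-182524000, measured -26.2, -23.5, -23.4 and -23.1 points.

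In each of these 8 windows 5AZA 2 lay below 5AZA 1. The same held in 40 of the 50 windows with the largest falls, a number chosen after the values were seen, against 57.9% of all 5AZA-only windows and 58.9% of windows at 80% or more. In the top 50 the median difference from the untreated libraries was -14.4 points in 5AZA 1 and -23.0 points in 5AZA 2, and the median gap between the 2 was 10.1 points, against 1.95 points over all 5AZA-only windows. Their deepest site had a median of 16 reads in the shallowest library, against 25 over all 5AZA-only windows. The largest falls thus came together with low depth and with 1 library, and the part of either in them was not tested.

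In windows with many CpG sites, the reads of a fragment are counted at each of its sites. At chr11:100644001-100645000 (11 sites, 163 to 550 summed reads per library) the level was 82.4% and 80.2% with saline, 79.5% and 81.2% in sham, and 66.7% and 47.9% with 5AZA. All 11 sites had both 5AZA libraries below the 4 others, by -9.80 to -32.5 points against the untreated mean, although the deepest site had only 27 reads in 5AZA 2. At chr15:84247001-84248000 (10 sites, 154 to 432 reads) the values were 70.3% and 72.7%, 71.1% and 73.4%, and 53.5% and 57.1% in the same order. Here 9 of 10 sites were lower with 5AZA, and 7 had both 5AZA libraries lowest. The window at chr2:169945001-169946000 (10 sites) had 86.8% and 85.5% with saline, 84.7% and 86.8% in sham, and 76.7% and 69.8% with 5AZA.

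The most sites, 22, lay at chr9:88961001-88962000, the window of the Gm24463 start printed above. Its level was 66.0% and 79.0% with saline, 77.0% and 71.7% in sham, and 56.6% and 59.9% with 5AZA. Of its sites 21 were lower with 5AZA, from -35.2 to 1.09 points, but both 5AZA libraries were lowest at only 9. A run of sites near 50% stood between sites of higher level, so the window held DNA of unlike levels. In the windows with 19 sites the libraries of a group lay close together. With 19 sites, chr4:45412001-45413000 had 96.8% and 95.9% with saline, 95.6% and 96.1% in sham, and 89.8% and 89.5% with 5AZA. At chr7:30101001-30102000, also with 19 sites, the 5AZA libraries had 78.9% and 77.9%, against 83.9% to 85.4% in the others. The windows at chr11:88177001-88178000 (15 sites), chr2:98229001-98230000 (14 sites) and chr3:106239001-106240000 (13 sites) differed by -10.5, -10.8 and -6.97 points. With 15 sites, the 5AZA libraries lay farther apart, at 69.9% and 75.4%. With 14 sites, they had 81.3% and 76.1%, and the sham libraries 91.6% and 86.3%.

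**Figure D3:**
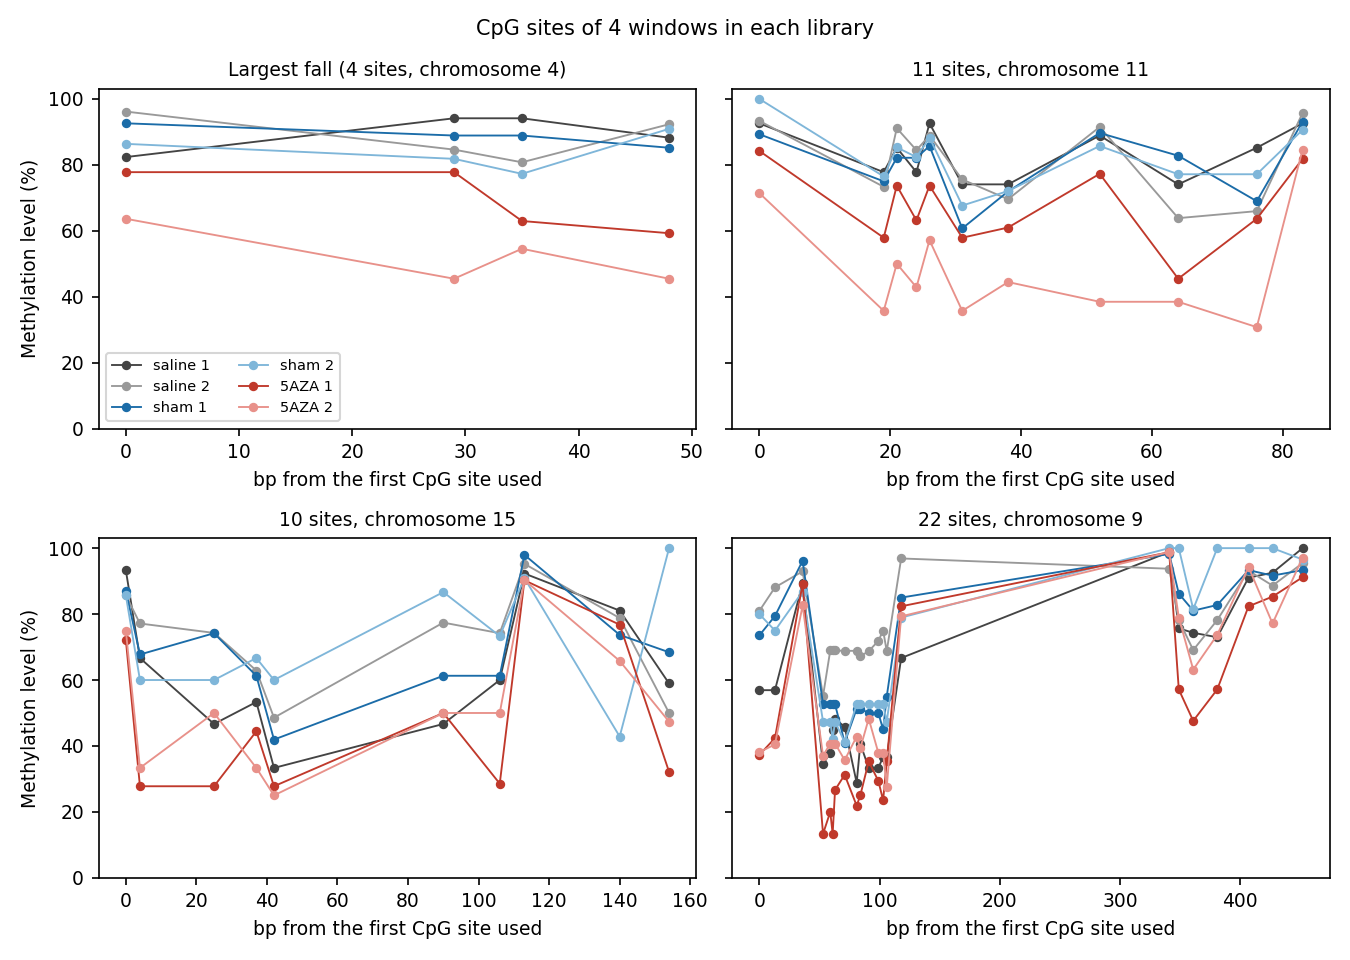
Methylation level of each CpG site (%) along 4 of the 5AZA-only windows, against its distance in bp from the first site used, with 1 line per library. In the 11-site window on chromosome 11 both 5AZA libraries lie lowest at every site, whereas in the 22-site window on chromosome 9 they do so at 9.

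In the 5AZA-only windows with the lowest starting level, 5AZA was lowest as the rule requires, and the order of saline and sham varied. At chr11:96138001-96139000 (7 sites) the level was 39.8% and 37.6% with saline, 44.5% and 37.6% in sham, and 29.4% and 30.6% with 5AZA. At chr17:27177001-27178000 (11 sites, 487 to 1456 reads), 11928 bp upstream of the start of the pro-apoptotic gene Bak1, it was 41.2% and 40.5% with saline, 40.7% and 42.1% in sham, and 35.1% and 32.8% with 5AZA. The windows at chr15:59505001-59506000 and chr10:82449001-82450000 differed by -10.7 and -8.55 points. The latter lay 1258 bp downstream of the start of Chst11, a chondroitin sulfotransferase gene.

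Few 5AZA-only windows had a tested window beside them. They had 274 tested neighbours in all, of which 18 (6.57%) were 5AZA-only themselves, against 1.54% of all windows. These formed 9 pairs of adjacent windows and no longer run. Adjacent windows can share a fragment, and whether this bears on the share was not tested. In the pair at chr1:75427001-75428000 and chr1:75428001-75429000, the difference was -9.07 and -8.74 points, with 62.6% to 70.2% in the 5AZA libraries and 70.8% to 80% in the others. The pair at chr1:34308001-34309000 and chr1:34309001-34310000 differed by -7.64 and -7.46 points, although the first stood at 78.9% and the second at 93.8% without 5AZA. Over all 171 tested neighbours at 80% or more the median difference was -4.12 points, but 14 of these were 5AZA-only and so chosen for their fall. Over the 156 neighbours at 80% or more that were not 5AZA-only, each counted once, it was -3.80 points. Other windows at 80% or more had -3.22 points.

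Within the 5AZA-only windows most sites were lower with 5AZA, which the rule favours, since the reads of these sites chose the windows. Of 6166 sites used, 5776 (93.7%) were lower with 5AZA than in the untreated mean, and at 3585 (58.1%) both 5AZA libraries were below all 4 others. The median site differed by -8.93 points. In other windows at 80% or more 76.3% of sites were lower, both 5AZA libraries were lowest at 21.6%, and the median was -2.76 points. Every site was lower in 1008 of the 1354 windows (74.4%). Sites of 1 MspI fragment share reads: in 498 windows (36.8%) every site had coverage within 10% of its neighbour, give or take 1 read, in every library, as sites of a single fragment would, so that the number of sites overstates the separate evidence. MspI ends that were filled in with methylated cytosine can read as methylated, and 338 of the 6166 sites (5.48%) were candidates for such ends by their coverage. They differed by -7.65 points, and the other 5828 sites by -9.68 points.

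Reads that the rule had not used gave smaller differences than those that chose the windows. In 287 of the 5AZA-only windows, 662 CpG sites had been left out because some library read them fewer than 10 times, but had at least 1 read in each. Pooled over these sites, the level was 89.9% and 88.1% with saline, 85.6% and 86.3% in sham, and 83.7% and 81.3% with 5AZA. Both 5AZA libraries were again lowest. The pooled difference was -4.96 points, against -3.53 points at 25748 unused sites of other windows at 80% or more. At the used sites of the same 287 windows the mean difference, not pooled in this way, was -9.95 points. Without sham 2 the pooled differences at unused sites were -4.77 points in the 5AZA-only windows and -3.57 points in the others. Unused sites can lie on the same fragments as used ones, so they are not fully separate.

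Leaving a 5AZA library out of the choice gave a readout in 5AZA reads that played no part in it. When windows were chosen without 5AZA 1, 6848 passed, with a median difference of -8.99 points in 5AZA 2, which chose them, and of -3.78 points in 5AZA 1, which did not. Windows at 80% or more had -2.77 points in 5AZA 1. The left-out library lay below all 4 untreated libraries in 73.8% of the chosen windows. This held in 52.7% of windows at 80% or more and in 35.8% of all windows. Chosen without 5AZA 2, 3945 windows had -8.61 points in 5AZA 1 and -5.15 points in 5AZA 2. Windows at 80% or more had -3.64 points in 5AZA 2. Of the 3945, 81.4% had 5AZA 2 below all 4 others, against 61.6% of windows at 80% or more and 40.5% of all windows. Without sham 2 in choice and readout, 5AZA 1 had -4.03 points in 9545 windows chosen without it, against -2.99 points at 80% or more, and 5AZA 2 had -5.30 points in 6283 windows, against -3.87 points. The untreated libraries served both the choice and this readout.

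When 1 library of each group chose the windows and the other 3 libraries were the readout, an alternative added after the data were seen, nothing was shared. The 7560 windows chosen by the libraries numbered 1 differed by -7.49 points in those libraries and by -3.70 points in the libraries numbered 2, where all windows at 80% or more had -3.52 points. In the reverse direction 8808 windows went from -7.90 to -3.31 points, against -2.96 points. In the libraries left out, 5AZA lay below both other groups in 64.6% and 70.6% of the chosen windows, against 69.7% and 70.0% of windows at 80% or more. Over all windows the shares were 47.8% and 55.7%. In libraries that had not chosen them, the chosen windows thus lay close to windows at 80% or more, and above the shares over all windows. The chosen windows were not limited to 80% or more, and that level was taken over all 4 untreated libraries, so the sets were not matched for level. The numbers only name the libraries, since nothing in the labels ties saline 1, sham 1 and 5AZA 1 together. Sham 2 is the only sham library numbered 2, so this readout could not be made without it. No library is left over to read out the 1354 windows themselves.

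**Figure D4:**
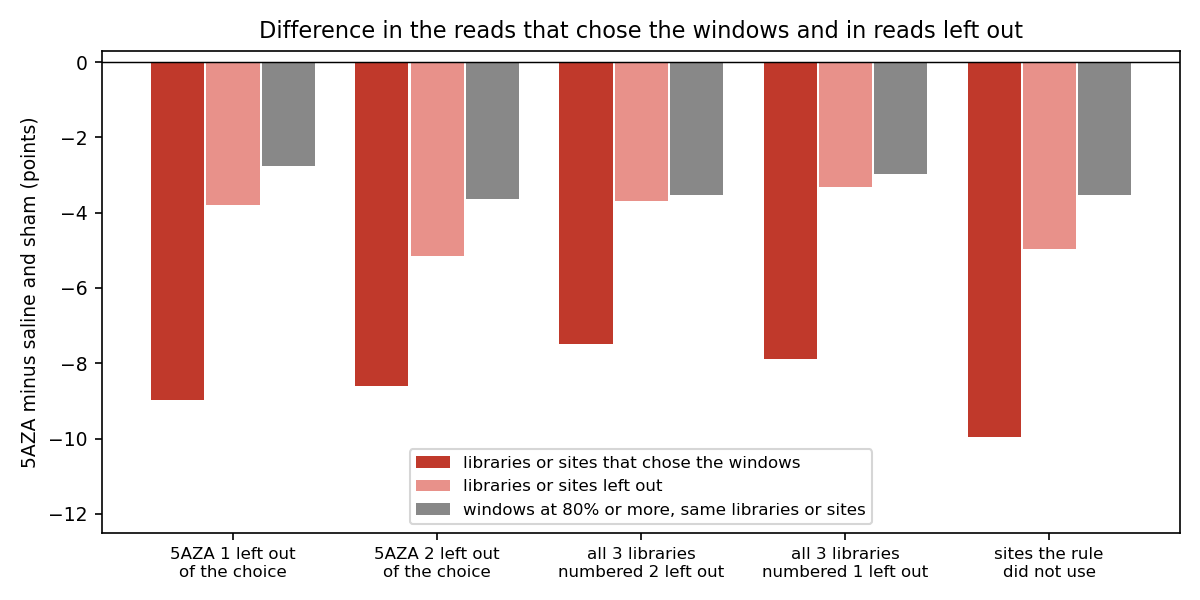
Difference between 5AZA and the saline and sham libraries (percentage points) in the libraries or sites that chose the windows (dark red), in libraries or sites left out of the choice (light red), and in windows of 80% or more read in the same libraries or sites (grey). Bars are medians over windows for the libraries. For the sites, the dark bar is a mean difference and the light and grey bars are pooled differences. In each case the light bar lies nearer to the grey bar than to the dark one.

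The window-by-window test of methylated against unmethylated reads used the same contrast as the rule, so its calls are only counted here. By edgeR's quasi-likelihood test with Benjamini-Hochberg adjustment, 248 of the 1354 windows (18.3%) were lower with 5AZA than with saline at an adjusted p under 0.05, beside 1.55% of all windows tested. At an unadjusted p under 0.05 it was 1282 windows (94.7%), beside 22.8%. The 248 had a median difference of -8.99 points and a median of 32 reads at the deepest site of the shallowest library, against 24 reads in the 5AZA-only windows that did not pass.

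Against sham, 0 of the 1354 windows passed by edgeR, beside 0.00111% of all windows tested, and the smallest adjusted p among them was 0.0680. At an unadjusted p under 0.05 it was 1235 windows (91.2%), beside 13.3%. Limma also called 0 at an adjusted p under 0.05, beside 0 of all windows. Between saline and sham 0 passed by edgeR, beside 0.0501% of all windows, and 6 (0.443%) had an unadjusted p under 0.05, beside 10.4%. The limit on the saline to sham difference in the rule sets these counts. The 248 calls against saline depended on single libraries. Leaving out any 1 of the 6 gave fewer calls among the 1354 windows, and fewer over all windows tested as well. An edgeR fit without the candidate fragment ends described with the sites above was added after the data were seen. It called 0, beside 0 of 85437 windows tested, and 1175 of 1276 at an unadjusted p under 0.05, beside 17392. Limma on log2 ratios called 0, beside 0 of 89813 windows, with 1303 unadjusted, beside 18155.

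How often a window was read is a measure that the rule did not use beyond its minimum of 10 reads per site. By edgeR's quasi-likelihood test of covering reads, 0 of the 1354 windows differed between 5AZA and the untreated libraries at an adjusted p under 0.05, beside 0% of all windows. The smallest adjusted p was 0.844, and limma called 0, beside 0 of all windows. At an unadjusted p under 0.05 it was 90 windows (6.65%) by edgeR, beside 4.29%, and 97 by limma, beside 3948 of 89813 windows. The median log2 difference of coverage was -0.06 in the 5AZA-only windows and 0.07 in other windows at 80% or more. On simulated data of this size the coverage test recovered 94 of 100 changes of 4-fold and 15 of 100 of 2-fold, so smaller differences in coverage could go undetected.

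The 5AZA-only windows were commonest where methylation was highest. Their median level without 5AZA was 92.9%, with a range from 39.9% to 99.7%, and 88.2% of them stood at 80% or more, against 52.6% of all windows. The share of windows that were 5AZA-only was 0% below 20%, 0.0101% at 20 to 40%, 0.371% at 40 to 60%, 1.15% at 60 to 80%, 2.06% at 80 to 90%, 2.59% at 90 to 95% and 3.08% from 95% up. Without sham 2 it rose from 0.128% at 20 to 40% to 4.28% at 80 to 90% and then stayed close to that, with 4.51% and 4.53% in the classes above. A fall of 5 points is not possible in windows below 5%. The median difference of all windows was 0.517 points below 20% and -3.32 to -3.27 points in the classes from 80% up. Over the untreated libraries 437 of the 1354 windows stood at 95% or more. With 5AZA 0 did, which the margin of 5 points all but requires, while 67 stood at 90% or more and 24 below 50%.

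The 5AZA-only windows were scarcest among windows with many CpG sites. Among windows at 80% or more their share was 2.39% with 3 sites, 2.97% with 4, 2.86% with 5 or 6, 2.19% with 7 to 9, 1.68% with 10 to 14 and 0.677% (3 of 443) with 15 or more. The median was 4 sites both in the 5AZA-only windows and in other windows at 80% or more. In all, 39 of the 1354 (2.88%) had 10 or more sites, against 4.29% of windows at 80% or more. Depth went with membership: among windows at 80% or more the share was 3.58% where the deepest site had 10 to 15 reads in the shallowest library, 3.19% at 15 to 20, 2.82% at 20 to 30, 2.15% at 30 to 50, 1.72% at 50 to 100 and 0 of 68 windows above that. The median difference of all windows in these classes moved little, from -3.58 to -2.99 points. Without sham 2, with the depth taken from the shallowest of the other 5 libraries, the share was 6.19%, 5.07%, 5.13%, 4.63% and 3.53% in the first 5 classes. Fewer reads give a wider scatter of levels, and its part in the choice of windows was not tested. Replicates lay closer together in the 5AZA-only windows than in other windows at 80% or more, with median gaps of 1.64 against 1.94 points in saline, 1.77 against 2.46 points in sham and 1.95 against 2.79 points in 5AZA. The rule favours this, since it needs libraries of both kinds to stay apart.

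**Figure D5:**
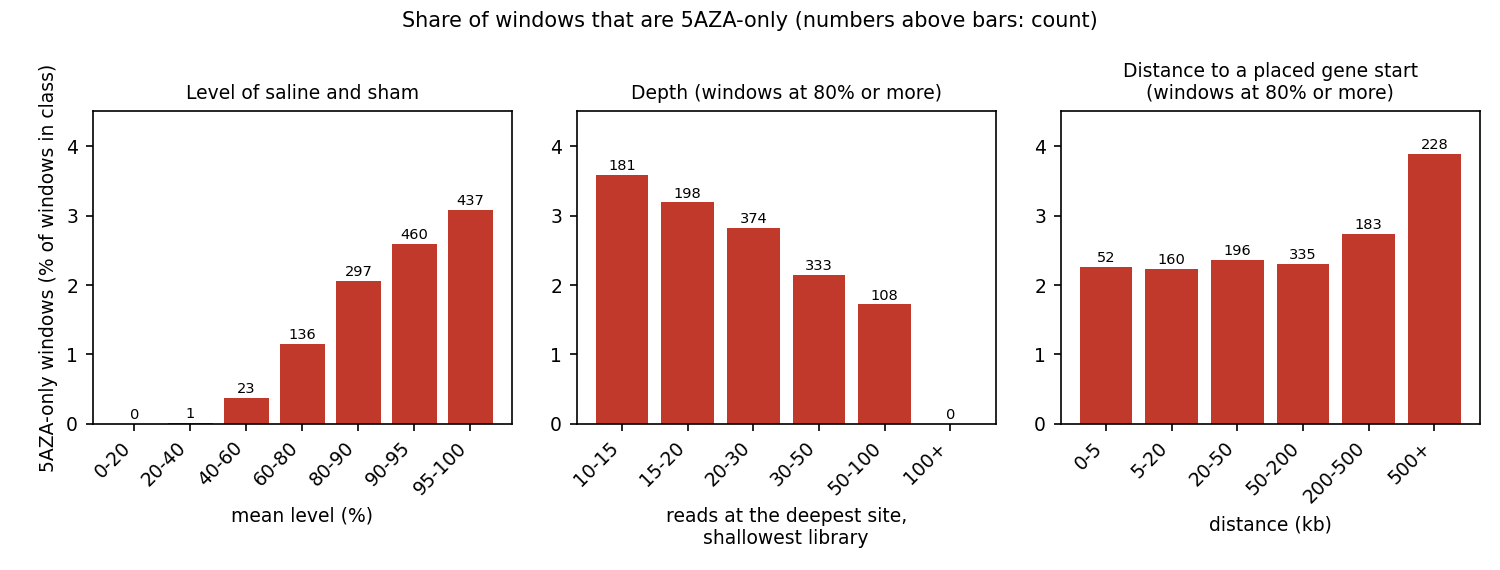
Share of windows (%) that were 5AZA-only, by mean level of the saline and sham libraries, by reads at the deepest site in the shallowest library, and by distance to the nearest placed gene start; numbers above the bars count the 5AZA-only windows. The share rises with level to 3.08%, falls with depth from 3.58%, and is highest, at 3.89%, more than 500 kb from a placed start.

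Placed gene starts were rare among the 5AZA-only windows, as they were among all windows at 80% or more. Starts of 8727 genes could be placed on 18 of the 19 autosomes, and 1312 of the windows lay on these. A placed promoter overlapped 2 of the 1312 (0.152%), 125 (0.278%) of windows at 80% or more and 9106 (10.7%) of all windows. Windows with a placed promoter had a median level of 16.6%. Of all windows below 20%, 0% were 5AZA-only, and their median difference was 0.517 points. The median distance to a placed start was 83600.5 bp, against 76975 bp in other windows at 80% or more, and 70 of the 5AZA-only windows lay within 5 kb of one. Among windows at 80% or more, the share of 5AZA-only windows was 2.26% within 5 kb, 2.23% at 5 to 20 kb, 2.36% at 20 to 50 kb, 2.30% at 50 to 200 kb, 2.73% at 200 to 500 kb and 3.89% (228 of 5855) beyond 500 kb. The median difference of all windows in the farthest class was -3.75 points, against -3.23 to -3.12 points within 200 kb, and its deepest site had a median of 27 reads in the shallowest library, against 28 to 30. Among windows that the rule did not keep, the median was -3.63 points in the farthest class and -3.17 to -3.06 points within 200 kb. Without sham 2 the share was 5.93% beyond 500 kb and 3.803% to 4.61% nearer. Only promoters with at least 6 CpG sites seen in the deposited data could be placed, so other starts are missing from these counts and distances.

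The 5AZA-only windows were spread over all autosomes. Their share of the windows at 80% or more ran from 1.49% on chromosome 19 (20 windows) to 3.62% on chromosome 3 (77 windows). Of those at 80% or more, 6.03% had a window under 20% within 5 kb, against 6.45% of other windows at 80% or more. Their closeness to unmethylated stretches was thus much the same as that of other methylated windows.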

How the data were processed

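Methylation was read in 6 libraries. Per the labels' protocols, DNA was cut with MspI, end-repaired with a mix holding methylated dCTP, size-selected in fractions with inserts of 40 to 120 bp and of 120 to 220 bp, then bisulfite-treated and amplified by PCR. Bowtie and the build mm9 are named, without versions, per the submitters' processing notes. How reads were trimmed and methylation called is not given in the sources used here. Each row the authors deposited is a CpG site with counts of covering and of methylated reads, and a fraction that equals their ratio. The files have no header, so column meanings were taken from the values. No molecular identifiers are described, so counts are of reads, and sites of a fragment share reads.

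Libraries were grouped by the treatment in the labels, 2 to a group. Windows, members and lists were chosen with earlier results of these data known. Methylated and unmethylated counts of 89813 windows on all chromosomes were fitted with edgeR 4.0.16 in R 4.3.3 (intercept per library, group effect on methylated reads, 1 common dispersion of 0.00632), and covering reads with edgeR after TMM scaling; limma 3.58.1 (log2 ratios with 1 added to each count) and DESeq2 1.42.0 size factors were alternatives. P-values were adjusted by Benjamini-Hochberg over all windows. The tests were checked on simulated data of 89813 windows with 100 changed for each size. The methylation test of 5AZA against saline recovered 21 changes of 10 points and 80 of 20 points, with 6 calls among unchanged windows. The coverage test recovered 15 of 2-fold and 94 of 4-fold with 3. For the methylation test, changes were put only in the more methylated windows, and all reads of a window were drawn as separate reads. The spread between libraries was set by hand, not estimated from these data. Real sites of a fragment share reads, so its recovery and false calls may differ in the real data. Window levels were computed in Python 3.11.15 with pandas 2.3.3 and numpy 2.4.6.

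No genome of mm9 was used. RefSeq promoters of GRCm38.p6 with at least 6 CpG sites were placed by the spacing of their CpG sites: of 17846 on autosomes, 9990 matched a single place, 9885 of them in order with their neighbours, for 8727 genes; of the same patterns reversed, 577 matched. A closer gene may be missing, and distances are measured from the window's middle.

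The windows given by position are the 8 largest falls, the 6 with most sites, the 4 of lowest level, the 4 largest falls among those with 10 or more sites, the 2 longest runs, and the 2 nearest to each threshold on either side. Names of the nearest placed genes were added after the data were seen. Candidate fragment ends were sites covered as often, within 5%, as both neighbours at up to 220 bp added together, or sites of 30% or more in windows of at least 10 sites whose median was under 5%. Alternatives were another coverage minimum, site number, margin, limit, window size or grid, unweighted levels, fits with other tools or libraries, a replicate block, and omission of single libraries, of the deepest 0.1% of sites or of the candidate fragment ends.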

Additional observations from a re-analysis of the deposited data

How the results depend on the processing

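The count of 5AZA-only windows depended on the thresholds: it was 706 at a coverage minimum of 20 reads, 506 with at least 5 sites per window, 70 with a margin of 10 points and 206 with the 5AZA libraries centred within classes of level, an alternative added after the data were seen. Leaving out 1 library at a time gave 1700 to 6848 windows, with 2553 without sham 2, 3945 without 5AZA 2 and 6848 without 5AZA 1, since fewer libraries then have to meet the rule. The mean difference over the windows ranged from -9.94 to -9.19 points when a library was left out, and was -16.2 points with the wider margin by its construction. The 248 calls against saline became 0 by limma, 35 in the 4 libraries of both groups alone, 0 in the edgeR fit without candidate fragment-end sites, also added later, 0 to 121 when a library was left out, and 636 with a replicate block; saline and 5AZA libraries of the same number share only a number (correlation of their deviations 0.076). The calls against sham numbered 0 to 23 when a library was left out, 23 without 5AZA 1. Over all 89813 windows tested, 1392 were called lower than saline in the main fit, and 4 higher. In the 4 libraries alone it was 172 lower and 1 higher, and with the replicate block 6622 lower and 234 higher. The calls against sham without 5AZA 1 also rose over all windows. These changes were thus not limited to the 5AZA-only windows. The cause of these changes in calls was not tested. At unused sites the difference was -7.84 points on the minus strand, from 44 sites. In the other alternatives run, the mean differences kept their direction and the counts of windows chosen or called at an adjusted p under 0.05 stayed within 1.5 times. Counts at an unadjusted p under 0.05 moved more. Between saline and sham it was 44 by limma, beside 9756 of 89813 windows, against 6 by edgeR, beside 9372. The counts fell against sham without sham 1, and for coverage without sham 2 and without 5AZA 2, as they did over all windows. Depth limits single windows: in its shallowest library the median 5AZA-only window had 90 summed reads and the least covered 30.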

Other observations

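The X chromosome was outside the rule. Male mice carry a single X chromosome, so its windows hold no inactive copy. The same thresholds applied there kept 30 of 1508 windows (1.99%), all 30 of them among the 741 windows at 80% or more (4.05%), and 0 windows with 5AZA higher. Over these 30 windows the level was 94.5% and 94.9% with saline, 94.5% and 95.6% in sham, and 84.8% and 83.3% with 5AZA. Their median difference was -10.8 points, and that of all X windows at 80% or more was -3.61 points.

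Some 5AZA-only windows shared the spacing of their first 4 CpG sites with other windows. Of the 882 with at least 4 sites, 117 (13.3%) had a spacing found in at least 3 windows in all, against 9.80% of 27554 other windows at 80% or more with at least 4 sites. No genome sequence of this build was used, so what these windows have in common was not examined.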
